A study of Mus musculus with 12 samples.

Results

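The 10 genes described here are core parts of Notch signalling and its basic helix-loop-helix effectors: the ligands Dll1, Dll3 and Jag1, the receptors Notch1 and Notch2, the DNA-binding factor Rbpj, and the effectors Hes1, Hes5, Hes6 and Hey1. They were chosen by symbol from the 19057 genes that the array annotation names, and 16 probes carry one of their symbols. Where a gene has several probes, the brightest on average stands for it. Of the 10 genes, 6 reached a log2 signal of 4.5 on at least 1 array and 5 did so on all arrays of at least 1 group. This limit of 4.5 was set above the floor of the deposited values, and 62.1% of all 45281 probes stayed under it on every array. A signal under it is called background here.

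Illumina bead arrays (MouseWG-6 v2.0) gave expression values for total RNA of 12 mouse samples, 4 in each of 3 groups. The first group was medulloblastoma (MB), a cerebellar tumor, from Ptch+/- mice that also lacked Ndp (NdpKO;Ptch+/- MB). Ndp is X-linked and encodes Norrin, a secreted ligand of the receptor Fzd4 that acts on endothelial cells. The second was MB of Ptch+/- mice with intact Ndp (Ptch+/- MB), and the third was wild-type granule neuron progenitors (WT GNP), the cells from which this tumor type arises, purified at postnatal day 6 by density gradient and pre-plating. Ptch encodes the inhibitory receptor of the Sonic hedgehog pathway, and mice of both tumor groups are heterozygous for its loss. The labels give a mixed strain background for NdpKO;Ptch+/- MB and C57Bl/6 for the other groups, so strain and Ndp genotype cannot be told apart by the labels. The study's methods differ from them, in that double mutants are said there to share a breeding cohort, and so a background, with their controls. The Ndp allele is disrupted by a lacZ cassette in all cells, and the breeding scheme yields its loss with Ptch+/- in males only, whereas controls could be of either sex. Tumors were dissected from symptomatic animals whose ages the labels do not give. The study describes the progenitor samples as separate animals, and the title of each tumor sample carries its own number, but no source used here says that the tumors of a group came from separate animals. P-values between tumors then measure only a spread between samples, which the main test pooled over all 3 groups, WT GNP included. The single Ndp probe was at background on all arrays, between 4.12 and 4.21, and so could not check the Ndp labels.

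In Notch signalling, a ligand on one cell binds a Notch receptor on its neighbor, the receptor is cut by a metalloprotease and then by gamma-secretase, and its intracellular domain enters the nucleus. There it joins Rbpj, displaces corepressors and switches on Hes and Hey genes, whose products repress proneural genes and keep progenitors undifferentiated. Hes6 is the exception among the effectors described here: it is generally activated by proneural factors rather than by Notch, and its product counteracts Hes1. In the developing cerebellum, Notch ligands and receptors act on granule neuron progenitors and on Bergmann glia.

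Promoter windows of 250 bases before a RefSeq gene start (GRCm38.p6) were found for 8 of the 10 members, in 11 windows. Hes1 and Hey1 had no window and were not searched. They are shown for the members with the letters of an Rbpj site and for the member that changed between tumor genotypes. In the Hes5 window, capitals mark the Rbpj core GTGGGAA, or its reverse complement TTCCCAC, at -226 and -83 from the start. In both Hes6 windows, capitals mark the E-box CANNTG, the motif of many basic helix-loop-helix factors, proneural ones included. It starts at -150 in the first window, and at -220, -171 and -164 in the second.
Hes5, chr4:154960673-154960922, plus strand: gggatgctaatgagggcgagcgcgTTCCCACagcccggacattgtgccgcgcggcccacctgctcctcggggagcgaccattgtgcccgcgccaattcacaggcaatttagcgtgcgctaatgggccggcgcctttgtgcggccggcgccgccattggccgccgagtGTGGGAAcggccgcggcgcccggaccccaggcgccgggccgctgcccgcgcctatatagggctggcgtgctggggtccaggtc
Hes6 inner start, chr1:91413223-91413472, minus strand: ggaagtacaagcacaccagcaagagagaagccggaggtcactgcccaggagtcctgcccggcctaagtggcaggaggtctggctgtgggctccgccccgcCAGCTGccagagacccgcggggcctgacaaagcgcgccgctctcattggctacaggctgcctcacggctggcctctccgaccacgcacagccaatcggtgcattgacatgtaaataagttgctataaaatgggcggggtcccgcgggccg
Hes6 outer start, chr1:91414039-91414288, minus strand: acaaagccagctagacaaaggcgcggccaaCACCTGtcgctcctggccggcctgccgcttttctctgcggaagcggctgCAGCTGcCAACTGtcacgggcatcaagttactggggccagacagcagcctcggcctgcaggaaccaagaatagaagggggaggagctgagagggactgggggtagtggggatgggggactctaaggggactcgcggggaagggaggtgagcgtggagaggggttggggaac

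Among the 8 members with a window, the Rbpj core stood in that of 1, Hes5, and in 5.42% of all 32851 windows of the same length. The E-box stood in 66.2% of them, so a match is the usual case. The N-box CACNAG (either strand), a site of Hes repressors, stood in 36.7% of all windows, and of the windows shown it stood in the inner Hes6 window alone, at -237. None of the marked letters overlap. The windows were searched as letters only and no binding was measured.

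Of the 10 members, each read by its brightest probe, only Hes6 passed the test between the tumor genotypes, being higher in NdpKO;Ptch+/- MB. Of all probes, 1.38% passed in either direction in this comparison, 0.530% higher and 0.848% lower, and 3.42% passed among probes at or above 4.5 on at least 1 array. Compared with WT GNP, Hes6 and Hes1 were lower in Ptch+/- MB, as was Dll1 at background level. Among all probes 17.3% passed there, 8.12% higher and 9.14% lower, or 37.0% of those above background, beside 2 of the 6 members above background. In NdpKO;Ptch+/- MB against WT GNP, only the background-level Dll1 passed, against 12.4% of all probes, 5.79% higher and 6.61% lower, or 27.1% of those above background. Read by its brightest probe, no member was called higher than WT GNP in either tumor group by limma. The unadjusted limma p was under 0.05 for 5 members in the Ptch+/- MB comparison (Dll1, Rbpj, Hes1, Hes5 and Hes6). In the NdpKO;Ptch+/- MB comparison it was so for 3 (Dll1, Rbpj and Jag1). Dll1 and Rbpj were at background on all arrays, and Jag1 reached the limit on 1. The share of all probes under that unadjusted threshold is not given here, so these counts are not read as a result. Over the 6 members above background, of which 1 passed, the median log2 difference between tumor genotypes was 0.84, against 0.014 over all 9648 genes above background. Without Ptch+/- MB replicate 1 it was 0.37, and leaving out any other tumor array gave 0.59 to 0.89 (a check of the median chosen after seeing the data). It was -0.98 for Ptch+/- MB against WT GNP, where all genes had -0.00057, and -0.17 for NdpKO;Ptch+/- MB, where all genes had 0.032. The former was -0.63 without Ptch+/- MB replicate 1, and the latter was -0.32 without NdpKO;Ptch+/- MB replicate 3 and -0.062 without replicate 4. The 3 comparisons share arrays, so their values are given side by side and were not correlated.

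**Figure D1:**
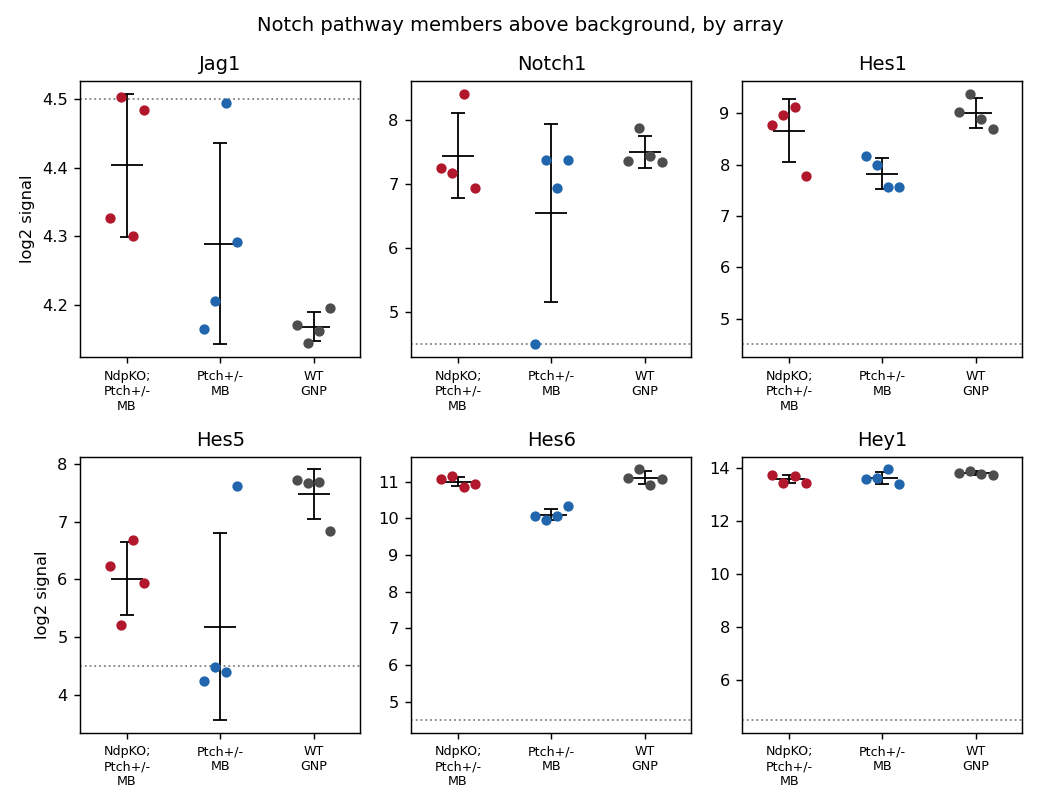
The log2 signal of the 6 members that reached 4.5 on at least 1 array, with 1 point per array, a bar for the mean and whiskers for the SD (n = 4 per group). The dotted line is the background limit of 4.5. Hes6 in Ptch+/- MB lies between 9.96 and 10.33, below all arrays of the other groups, while Notch1 and Hes5 have a single Ptch+/- MB array far from the other 3.

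Among the ligands, Dll1, a transmembrane activator of Notch receptors, stayed under 4.5 on all 12 arrays. Its log2 signal was 4.20, 4.23, 4.21 and 4.18 in NdpKO;Ptch+/- MB, 4.13, 4.15, 4.17 and 4.17 in Ptch+/- MB, and 4.46, 4.43, 4.37 and 4.41 in WT GNP. The progenitors lay above all 8 tumors without overlap, and limma called both tumor groups lower, with an adjusted p of 1.6e-05 for Ptch+/- MB and 7.7e-05 for NdpKO;Ptch+/- MB. No fold is given, because both sides were at background. The tumor groups also did not overlap for Dll1, by a gap of 0.0038, and the adjusted p was 0.311. Dll3, a divergent ligand that inhibits Notch within the cell that makes it, gave 4.12 to 4.15 on all arrays and had no call.

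Jag1, a ligand of the Serrate class, read 4.33, 4.503, 4.30 and 4.48 in NdpKO;Ptch+/- MB. It read 4.16, 4.21, 4.49 and 4.29 in Ptch+/- MB, and 4.17, 4.15, 4.16 and 4.20 in WT GNP. A single array reached the limit, replicate 2 of NdpKO;Ptch+/- MB, and the tumor genotypes overlapped. All 4 NdpKO;Ptch+/- MB arrays lay above the progenitors (log2 difference 0.24, 95% interval 0.074 to 0.40), and this did not pass (adjusted p = 0.0635). It passed in 4 of 15 alternative settings.

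Of the receptors, Notch1 was measured and Notch2 was not above background. Notch1 read 7.25, 7.18, 8.42 and 6.94 in NdpKO;Ptch+/- MB, 4.49, 7.38, 6.93 and 7.39 in Ptch+/- MB, and 7.36, 7.88, 7.44 and 7.35 in WT GNP. The groups overlapped, and the Ptch+/- MB array of replicate 1 was at background while the other 3 read 6.93 to 7.39. The tumor difference of 0.90 (95% interval -0.48 to 2.28, adjusted p = 0.620) fell to 0.21 without that array, and the difference of Ptch+/- MB from WT GNP moved from -0.96 to -0.27. NdpKO;Ptch+/- MB differed from WT GNP by -0.061 (95% interval -1.44 to 1.32). Both probes of Notch2 read 4.12 to 4.15 on every array.

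Rbpj, through which all canonical Notch signals act, could not be followed on this array, since its 3 probes read 4.099 to 4.158. One of the dim Rbpj probes was nominally higher in NdpKO;Ptch+/- MB by 0.022 with an adjusted p of 0.0450, and higher than WT GNP by 0.021 with an adjusted p of 0.0129. These differences lie within background and are not read as a change.

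**Figure D2:**
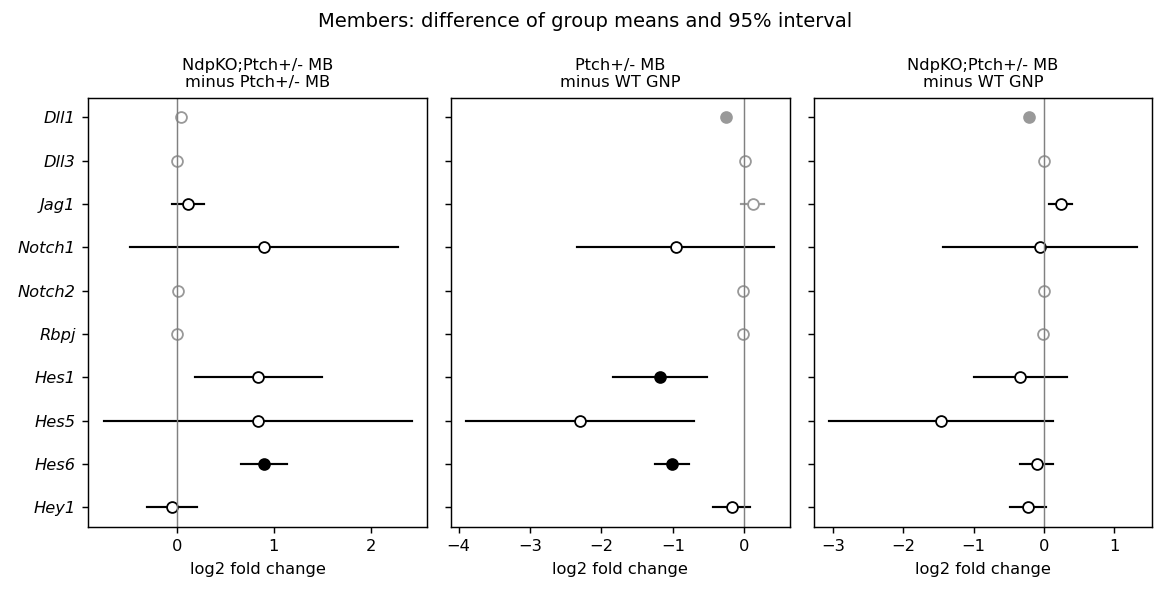
Log2 differences of group means (circles) with 95% intervals (lines) for the 10 members in each of the 3 comparisons, from the limma fit on 12 arrays. Filled circles passed at an adjusted p under 0.05, open circles did not, and gray marks genes under 4.5 on all arrays of both groups. Hes6 is the single filled circle between tumor genotypes, at 0.90, and Notch1 and Hes5 have the widest intervals.

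Hes6 showed the clearest difference among the effectors. The gene lies at chr1:91411483-91414038 (GRCm38.p6). Its brightest probe read 11.06, 11.15, 10.87 and 10.93 in NdpKO;Ptch+/- MB, 10.06, 9.96, 10.06 and 10.33 in Ptch+/- MB, and 11.11, 11.34, 10.92 and 11.07 in WT GNP. All 4 Ptch+/- MB arrays were below the other 8, with a gap of 0.54 to the nearest NdpKO;Ptch+/- MB array, while NdpKO;Ptch+/- MB and WT GNP overlapped. NdpKO;Ptch+/- MB was higher than Ptch+/- MB by 0.90 ± 0.11 (SE) on the log2 scale, or 1.87-fold, with a 95% interval of 0.67 to 1.14 and an adjusted p of 0.00584. The exact permutation test over the 8 tumors gave p = 0.0286 (two-sided), the smallest it can give with 4 against 4. Any gene without overlap between the tumor genotypes gets this value, and Dll1 got it at background. Adjusted by Benjamini-Hochberg over the members, the permutation p of Hes6 was 0.143, so it did not pass by that test. Ptch+/- MB was 2.01-fold lower than WT GNP (log2 difference -1.01 ± 0.11 SE, adjusted p = 0.000181). Against WT GNP, NdpKO;Ptch+/- MB differed by -0.11, with an interval of -0.34 to 0.13 (adjusted p = 0.601). The tumor call held in 16 of 16 alternative settings, with differences from 0.85 to 0.99.

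The other Hes6 probes moved the same way. The second probe read 9.52, 9.86, 9.69 and 9.40 in NdpKO;Ptch+/- MB, 8.67, 8.70, 8.61 and 8.92 in Ptch+/- MB, and 10.12, 10.28, 9.71 and 9.80 in WT GNP. Its tumor difference was 0.89 ± 0.14 (SE, adjusted p = 0.0192). The third read 8.92, 9.66, 9.27 and 9.02, then 7.96, 7.72, 8.04 and 8.49, then 9.67, 9.68, 8.94 and 9.08 in the same order of groups. For this probe the tumor difference was 1.16 ± 0.24 (SE), just short of the threshold (adjusted p = 0.0518). None of the 3 probes overlapped between tumor genotypes, and replicate 4 had the highest signal among the Ptch+/- MB arrays on each. The probes read RNA of the same samples and are not replicates.

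**Figure D3:**
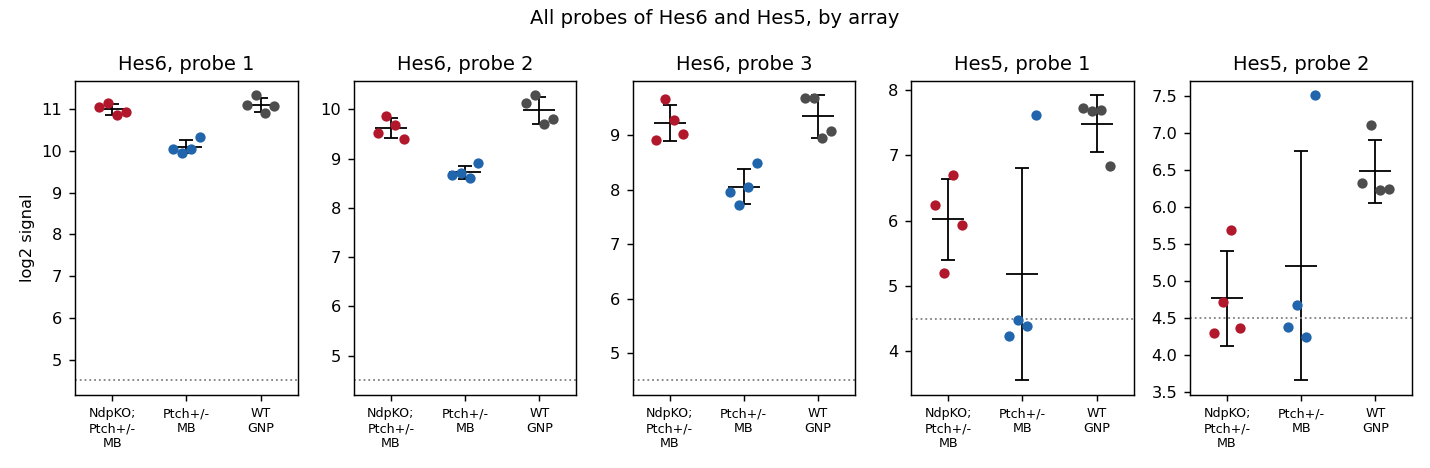
The log2 signal of the 3 Hes6 probes and the 2 Hes5 probes, numbered from the brightest, with 1 point per array, a bar for the mean and whiskers for the SD (n = 4 per group). The dotted line is the limit of 4.5. The Ptch+/- MB arrays lie lowest on every Hes6 probe, whereas on both Hes5 probes 1 Ptch+/- MB array stands at 7.50 or above.

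Hes1, a repressor induced by Notch and by other signals, lies at chr16:30065357-30067796 and has 1 probe. It read 8.77, 8.98, 9.13 and 7.77 in NdpKO;Ptch+/- MB, 8.17, 7.99, 7.57 and 7.57 in Ptch+/- MB, and 9.03, 9.39, 8.89 and 8.70 in WT GNP. Replicate 4 of NdpKO;Ptch+/- MB lay within the Ptch+/- MB range, and the other 3 lay above it. The tumor difference was 0.84 ± 0.29 (SE), with a 95% interval of 0.18 to 1.498, and did not pass (adjusted p = 0.240, exact permutation p = 0.0857, two-sided). Without replicate 4 of NdpKO;Ptch+/- MB it was 1.14 with an adjusted p of 0.0381. Ptch+/- MB was 2.26-fold lower than WT GNP without overlap (log2 difference -1.18 ± 0.29 SE, adjusted p = 0.0215). That call was lost without Ptch+/- MB replicate 3 or 4 or WT GNP replicate 1 or 2, where the adjusted p was 0.0523 to 0.0611. The difference of NdpKO;Ptch+/- MB from WT GNP was -0.34, with an interval of -0.996 to 0.32 (adjusted p = 0.539).

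Hes5, a repressor that Notch switches on directly in neural progenitors, lies at chr4:154960626-154962372, and its promoter window is the one above that holds the Rbpj core. Its brighter probe read 6.24, 5.20, 6.69 and 5.93 in NdpKO;Ptch+/- MB, 4.24, 4.48, 4.39 and 7.62 in Ptch+/- MB, and 7.72, 7.68, 7.69 and 6.84 in WT GNP. Of the Ptch+/- MB arrays 3 were at background, and replicate 4 was as high as the progenitors. The tumor difference was 0.83 (95% interval -0.76 to 2.42, adjusted p = 0.716). Ptch+/- MB was lower than WT GNP by 2.30, just short of the threshold (log2 difference -2.30 ± 0.71 SE, adjusted p = 0.0531), and without Ptch+/- MB replicate 4 the difference was -3.11 with an adjusted p of 0.00054. This comparison passed in 4 of 16 alternative settings. All NdpKO;Ptch+/- MB arrays lay below the progenitors (log2 difference -1.47 ± 0.71 SE, adjusted p = 0.240).

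The weaker Hes5 probe read 4.29, 4.71, 5.69 and 4.36 in NdpKO;Ptch+/- MB, 4.39, 4.68, 4.25 and 7.50 in Ptch+/- MB, and 6.32, 7.11, 6.23 and 6.24 in WT GNP. It too was highest among tumors in Ptch+/- MB replicate 4, but its tumor difference was -0.44, opposite in sign to that of the brighter probe. Both probes put the means of both tumor groups below WT GNP, and neither passed. In Ptch+/- MB replicate 4 the summed linear signal of 8 astrocyte and Bergmann glia markers was 30795, against 15073 to 25841 in the other Ptch+/- MB arrays. That of 5 microglia markers was 2661, against 1122 to 2059. In WT GNP, where the Hes5 mean was highest, these sums were 12341 to 15735 and 148 to 256. The part of these cells in the Hes5 value was not tested.

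Hey1, a Notch-induced repressor known for its role in vessels and in neural precursors, was bright and flat. It read 13.74, 13.43, 13.69 and 13.43 in NdpKO;Ptch+/- MB, 13.56, 13.60, 13.94 and 13.39 in Ptch+/- MB, and 13.78, 13.89, 13.78 and 13.74 in WT GNP. The groups overlapped and no comparison passed. The tumor difference was -0.052 with an interval of -0.31 to 0.21, Ptch+/- MB differed from WT GNP by -0.17 (-0.43 to 0.083), and NdpKO;Ptch+/- MB differed from WT GNP by -0.23 (-0.48 to 0.031).

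By the brightest probe, the group means of Notch1, Hes1, Hes5 and Hes6 fell in the order WT GNP, NdpKO;Ptch+/- MB, Ptch+/- MB, whereas the tumor groups stood the other way round for Hey1 and for the weaker Hes5 probe. For Notch1, the first and second in that order changed places in 5 of 16 alternative settings. Neighbors in that order passed the test only for Hes6, between the tumor genotypes. No difference between NdpKO;Ptch+/- MB and WT GNP passed for these 4 genes, although the Hes5 groups did not overlap. Jag1, at background on all but 1 array, had its lowest mean in WT GNP (4.17), below Ptch+/- MB (4.29) and NdpKO;Ptch+/- MB (4.40).

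By the root mean square difference of mean-centred log2 signals over the 12 arrays, among 8912 genes, the genes most like Hes6 were Srp19 (0.181), Tceal1 (0.191) and Srrd (0.192). Those most like Hes1 were Hnrnpd (0.248), Rab15 (0.301) and Gpc3 (0.302). For Dll1, which also passed in a comparison, no such genes are given because its signal was at background.

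Of the other genes of the pathway, 55 were analysed here and 39 of these were above background. Between the tumor genotypes 1 was higher, 2 were lower and 52 did not pass, with a median of -0.087 over the 39. Of all probes 0.530% were higher and 0.848% lower in this comparison, and 3.42% passed among those above background. The median over all 9648 genes above background was 0.014. Notch4, a receptor mainly of endothelial cells, read 9.29, 9.36, 9.66 and 9.65 in NdpKO;Ptch+/- MB, 8.99, 8.75, 8.67 and 8.91 in Ptch+/- MB, and 8.70, 8.85, 8.84 and 8.91 in WT GNP. The NdpKO;Ptch+/- MB arrays lay above both other groups, by 0.66 ± 0.10 (SE) over Ptch+/- MB (adjusted p = 0.0164) and by 0.67 over WT GNP (adjusted p = 0.00226). The tumor call was lost in 2 of 16 settings, with only the groups compared (adjusted p = 0.117) and with the replicate block (adjusted p = 0.0607), and averaging both probes gave 0.34. Of 10 endothelial markers, Emcn alone passed between the tumor genotypes (log2 difference 1.95, adjusted p = 0.0321), with Kdr and Tie1 at background on all arrays. The list's summed linear signal was 2457 to 3889 in NdpKO;Ptch+/- MB and 2007 to 2967 in Ptch+/- MB. It was highest in WT GNP, at 3937 to 5575, where Notch4 was as low as in Ptch+/- MB. The part of these cells in the Notch4 difference was not tested. In bulk samples, fewer cells of a type and less RNA per cell cannot be told apart.

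Spen, a corepressor that works with Rbpj, read 5.50, 4.41, 5.49 and 5.02 in NdpKO;Ptch+/- MB, 6.85, 6.82, 6.87 and 6.11 in Ptch+/- MB, and 4.302, 4.4996, 4.460 and 4.315 in WT GNP. The tumor genotypes did not overlap, and NdpKO;Ptch+/- MB was 2.94-fold lower (log2 difference -1.56 ± 0.25 SE, adjusted p = 0.0209). Without Ptch+/- MB replicate 1, 2 or 3, that call was lost, with an adjusted p of 0.0524, 0.0541 or 0.0568, as it was with only the groups compared (adjusted p = 0.146) and with the replicate block (adjusted p = 0.0597). Ptch+/- MB was at least 4.48-fold above the progenitors, which were at background (adjusted p = 0.000268). Numbl, a relative of the Notch inhibitor Numb, read 4.86, 4.55, 4.88 and 4.75, then 5.63, 6.15, 5.23 and 5.71, then 4.454, 4.408, 4.796 and 4.597 in the same order. NdpKO;Ptch+/- MB was lower by 0.92 on the log2 scale (log2 difference -0.92 ± 0.17 SE, adjusted p = 0.0378) and overlapped WT GNP. This call was lost in 9 of 16 settings, including without any 1 NdpKO;Ptch+/- MB array or Ptch+/- MB replicate 1 or 4, with an adjusted p of 0.0683 to 0.0984. The second probes of Notch4, Spen and Numbl were at background on all arrays.

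Against WT GNP, 10 of the 55 other pathway genes were higher and 10 lower in Ptch+/- MB, and 6 were higher and 7 lower in NdpKO;Ptch+/- MB. Of all probes, 8.12% were higher and 9.14% lower in the former (37.0% in either direction among probes above background), and 5.79% and 6.61% in the latter (27.1%), and these shares also stand beside the counts of gene groups below. The medians over the 39 genes above background were 0.040 and -0.13. Neurog2, a proneural factor and a target of Hes repression, read 7.40, 8.06, 7.48 and 7.22 in WT GNP and 4.12 to 4.14 in all 8 tumors. It was at least 8.23-fold lower in both tumor groups, with adjusted p-values of 4.3e-07 and 4.7e-07. Of 8 measured nuclear corepressors, 4 were higher in Ptch+/- MB (Spen, Tle1, Tle2 and Tle4) and 2 in NdpKO;Ptch+/- MB (Tle1 and Tle2), and none was lower. The Tle genes encode Groucho-family partners of the Hes repressors. Tle1 was 2.54-fold higher in Ptch+/- MB and 2.07-fold in NdpKO;Ptch+/- MB, and Tle2 was 4.25-fold and 4.92-fold higher. Tle2 read 4.33, 4.23, 4.94 and 5.03 in WT GNP, so its folds are measured in part against the floor. Tle4 passed in Ptch+/- MB (1.37-fold, adjusted p = 0.00130, or 0.0620 with the mean of all probes) and gave 1.14-fold in NdpKO;Ptch+/- MB (adjusted p = 0.0977).

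Of 9 measured genes for receptor cleavage, 2 were lower in Ptch+/- MB, and 1 was lower and 1 higher in NdpKO;Ptch+/- MB. Aph1b, a subunit of the gamma-secretase complex that releases the Notch intracellular domain, fell 5.12-fold in Ptch+/- MB (adjusted p = 0.000585) and 2.44-fold in NdpKO;Ptch+/- MB (adjusted p = 0.0201). The latter call was lost without NdpKO;Ptch+/- MB replicate 1 or 3 or WT GNP replicate 2 or 4, with an adjusted p of 0.0505 to 0.0564. Its relative Aph1a fell 1.88-fold in Ptch+/- MB (adjusted p = 0.00122) and was 1.33-fold lower, without passing, in NdpKO;Ptch+/- MB (adjusted p = 0.0751). Adam17, a metalloprotease that can make the first cut, rose 1.33-fold in NdpKO;Ptch+/- MB (adjusted p = 0.0222). This was lost without NdpKO;Ptch+/- MB replicate 1, 2 or 3 (adjusted p = 0.0555 to 0.0603), with the replicate block (adjusted p = 0.0728) and with the mean of all probes (adjusted p = 0.402). Poglut1, which adds glucose to the receptors, rose 1.91-fold and 1.70-fold.

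Among the 7 genes of receptor turnover, Fbxw7, the ubiquitin ligase subunit that marks the Notch intracellular domain for decay, fell 2.41-fold in Ptch+/- MB and 2.61-fold in NdpKO;Ptch+/- MB. Dtx1, an intracellular Notch modifier, rose 3.62-fold in Ptch+/- MB (adjusted p = 0.00072) and was 1.72-fold higher, without passing, in NdpKO;Ptch+/- MB (adjusted p = 0.0702). Dtx2 fell 1.23-fold in Ptch+/- MB (adjusted p = 0.0457, gap between groups 0.027) and 1.41-fold in NdpKO;Ptch+/- MB (adjusted p = 0.00499). The former Dtx2 difference was not among those recomputed in the alternative settings. Numbl rose 2.17-fold in Ptch+/- MB and gave 1.14-fold in NdpKO;Ptch+/- MB (adjusted p = 0.555). Of 7 nuclear coactivators, Maml2 rose 1.70-fold and 1.73-fold, while Maml1 fell 2.76-fold in NdpKO;Ptch+/- MB (adjusted p = 0.0420) and gave -0.56 on the log2 scale in Ptch+/- MB (adjusted p = 0.415). The Maml1 call was lost in 8 of 16 settings, without NdpKO;Ptch+/- MB replicate 1, 2 or 4 or any 1 WT GNP array (adjusted p = 0.0696 to 0.104) and with the replicate block (adjusted p = 0.0615). All 5 other Hes and Hey factors were at background on every array, and Hey2, counted among the lower genes in both tumor groups, read 4.14 to 4.29 throughout. The difference between the tumor groups' changes from WT GNP is the tumor comparison itself, in which only Notch4, Spen and Numbl of these genes passed. With the mean of all probes of a gene, including probes at background, 17 of the 27 differences of named pathway genes that passed moved by over 1.5 times, such as Tle1 in Ptch+/- MB from 1.35 to 0.45 on the log2 scale.

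**Figure D4:**
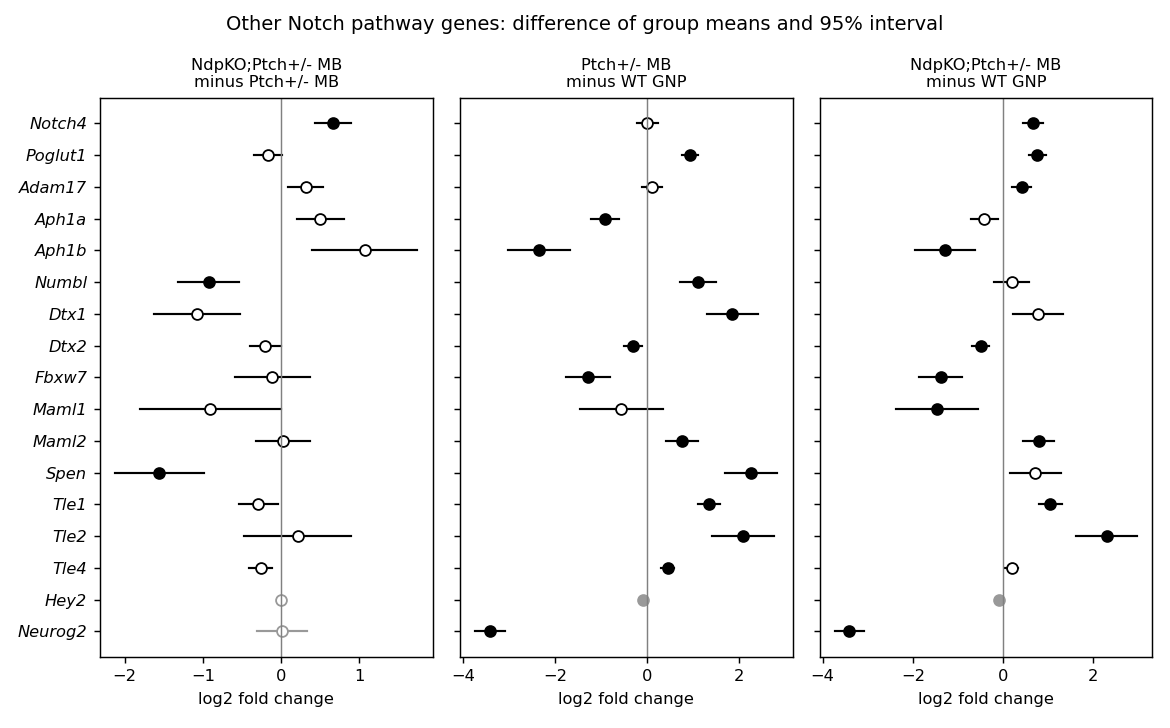
Log2 differences of group means (circles) with 95% intervals (lines) for 17 other pathway genes in the 3 comparisons. Filled circles passed at an adjusted p under 0.05, and gray marks genes under 4.5 on all arrays of both groups. Notch4, Spen and Numbl are the filled circles between tumor genotypes. Neurog2 is at background in both tumor groups, so its differences from WT GNP of about -3.4 are measured against the floor.

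Markers of other cells also moved between groups. Of 9 measured granule progenitor markers, Atoh1 and Gli1 were at background on all arrays, and Ccnd2, a cyclin of dividing progenitors, fell in NdpKO;Ptch+/- MB against Ptch+/- MB (log2 difference -0.85, adjusted p = 0.0280). The summed linear signal of this list was 29105 to 35609 in NdpKO;Ptch+/- MB, 38339 to 45716 in Ptch+/- MB and 33769 to 37854 in WT GNP. The mean log2 signal of the list overlapped between the tumor genotypes, at 9.08 to 9.15 and 8.95 to 9.34. Pax6 (0.67), Cntn2 (0.45) and Neurod1 (0.34) had positive log2 differences that did not pass. Zic2 (-0.54), Zic1 (-0.15) and Barhl1 (-0.12) had negative ones that did not pass either. Of 6 mural cell markers Vtn alone passed, higher in NdpKO;Ptch+/- MB (0.90, adjusted p = 0.0427), with summed signals of 1516 to 3143 against 658 to 1645 and with Pdgfrb and Des at background. None of 8 astrocyte, 5 oligodendrocyte, 5 microglia or 5 neuronal markers passed between the tumor genotypes. The part of these cells in the Hes6 difference was not tested.

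Against WT GNP, 4 of 5 microglia markers were higher in each tumor group, with summed signals of 1122 to 2661 in tumors and 148 to 256 in the progenitors. In both tumor groups 3 of 5 oligodendrocyte markers were lower and Olig1 was higher. The progenitor arrays read Mbp, a myelin gene, 30.0-fold above Ptch+/- MB. Endothelial markers were lower in Ptch+/- MB for 5 of 10 and in NdpKO;Ptch+/- MB for 1. Astrocyte markers were higher in Ptch+/- MB for 3 of 8 and in NdpKO;Ptch+/- MB for 2, but that list was split in direction. Gdf10 (log2 differences -2.12 and -2.66) and Aldh1l1 (-1.32 and -1.35) were lower in Ptch+/- MB and NdpKO;Ptch+/- MB without passing (adjusted p = 0.0908 to 0.147). Of the neuronal markers Syt1 was lower in both tumor groups, and Gabra6, Snap25 and Grin2c were at background throughout. The part of these cells in the differences of Hes1, Hes5 and Hes6 from WT GNP was not tested.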

How the data were processed

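Total RNA of each sample was hybridized to an Illumina MouseWG-6 v2.0 array, 4 per group. The authors deposited log2 signals, made from BeadStudio output with limma's neqc function, which subtracts background from negative control probes, adds an offset, quantile-normalizes and takes the log2; its version is not given in the sources used here. Here group differences were fitted with limma 3.58.1 (R 4.3.3), in one model of 3 group means over 12 arrays with empirical Bayes, which gave 9.60 total degrees of freedom. P-values were adjusted by Benjamini-Hochberg over all 45281 probes, and an adjusted p under 0.05 passed. Intervals are 95%. Gene names came from the platform annotation, which gives 1 symbol to 34885 probes, several to 18 and none to 10378. Quantile normalization forces a common distribution on the arrays, and neqc compresses dim signals toward a floor, so small differences there can pass. The arrays carry no detection p, slide or date, so batches could not be examined. Their number, 4 per group, limits the precision. Arrays of one group correlated at 0.984 to 0.996, and no 2 held the same values.

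The members, the gene lists and the limit of 4.5 were chosen with earlier results of these data known. The genes named were the members, other pathway genes that passed between tumor genotypes, up to 12 per comparison with WT GNP with the smallest adjusted p, up to 4 per marker list, and the 3 genes most like up to 3 members that passed. Where all arrays of the dimmer group were at background, the fold is a lower bound. It takes the mean log2 signal of the brighter group minus the limit of 4.5. Exact permutation tests of single members used the 8 tumors. Promoter windows came from RefSeq (GRCm38.p6) and were searched for 3 motifs. The fit was tested on simulated data. The alternatives were other normalizations, filters, weights, probe summaries and thresholds, and leaving out each array. Some listed genes were not analysed here.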

Additional observations from a re-analysis of the deposited data

Results flagged for a closer look

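In 6 of 61 tested groups of 4 arrays (9.84%), 4 of them among the 16 groups of members, 1 array lay far from the other 3, measured as its gap to the nearest other array divided by the range of the group. Chance gives about 1 in 20. Notch1 was low in Ptch+/- MB replicate 1 (ratio 0.844) and high in WT GNP replicate 2 (0.841). Hes5 was high in Ptch+/- MB replicate 4 (0.927) and low in WT GNP replicate 4 (0.953). Spen was low in Ptch+/- MB replicate 4 (0.934), and Dtx2 was low in WT GNP replicate 2 (0.890).

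The change from WT GNP differed between the tumor genotypes, by the limma test of the difference itself, for Hes6 (log2 difference 0.90), Notch4 (0.66), Spen (-1.56) and Numbl (-0.92). These tumors share the progenitor arrays, so each difference equals that between the tumor genotypes.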

How the results depend on the processing

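Hes6 kept its call between tumor genotypes and in Ptch+/- MB against WT GNP in 16 of 16 settings each. Of 716 recomputed fold changes of named genes, 661 kept their direction and side of the threshold, 38 no longer passed, 11 newly passed and 6, none of which passed, changed sign. Those were Notch1 in NdpKO;Ptch+/- MB against WT GNP (0.030 with array weights; positive without NdpKO;Ptch+/- MB replicate 1, 2 or 4 or WT GNP replicate 2, over a range of -0.39 to 0.11 when leaving out 1 array) and Hey1 between tumor genotypes (0.054 without Ptch+/- MB replicate 3, range -0.13 to 0.054). Counts of genes that passed moved as follows, with the cause not tested unless given. An adjusted p under 0.01 left 0, 13 and 8 other pathway genes for the tumor, Ptch+/- MB and NdpKO;Ptch+/- MB comparisons. Centring on bright probes shifted the group differences, by a median over all probes of -0.033 (tumors) and -0.031 (NdpKO;Ptch+/- MB against WT GNP). Of the probes then passing, 23957 of 27440 and 23670 of 30786 lay under 4.5. Members passing became 5 and 5, other pathway genes 27 and 36, and the share of higher among passing probes went from 38.5% to 5.59% and from 46.7% to 10.9%. Hes1 then passed between tumor genotypes (0.81, adjusted p = 0.0364). Leaving out dim probes, by construction with fewer probes tested, gave 5 and 22 other pathway genes in those comparisons and 0 members in the latter. For NdpKO;Ptch+/- MB against WT GNP, members were 2 with an intensity trend, 2 with the mean of all probes, 3 with only the groups compared and 0 when probes under 4.5 were not counted (chosen after seeing the data), and other pathway genes were 21 with an intensity trend and 21 with array weights. Other pathway genes between tumor genotypes were 0 with only the groups compared. Leaving out 1 array gave 1 to 2 members and 1 to 4 other pathway genes between tumor genotypes (2 without NdpKO;Ptch+/- MB replicate 4, 1 without Ptch+/- MB replicate 1), 2 to 3 and 17 to 20 for Ptch+/- MB, and 1 to 1 and 9 to 15 for NdpKO;Ptch+/- MB. Replicate numbers did not pair the samples (correlation of same-numbered deviations -0.18 to 0.11, 1 of 12 best with its own number). With the replicate block, 0 other pathway genes passed between tumor genotypes, and Hes6 still did. Signals near the floor limit all statements on Dll1, Dll3, Jag1, Notch2 and Rbpj.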
